A study of Mus musculus with 2 samples.

Results

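The miRNAs described here are 8 mature mouse miRNAs that were picked by name from the 1881 on the array. They are mmu-miR-217-5p, mmu-miR-216a-5p, mmu-miR-216b-5p and mmu-miR-375-3p, which are enriched in the pancreas, and mmu-miR-148a-3p, mmu-miR-148a-5p, mmu-miR-148b-3p and mmu-miR-152-3p, which come from the hairpins of the miR-148 and miR-152 family. The prefix, which stands for mouse, is left out below. They were measured in exosomes, small vesicles that cells release, isolated from culture supernatants by differential ultracentrifugation. KPC-exosomes came from a murine pancreatic cancer line grown from the tumour of a mouse whose alleles included Trp53 LSL-R172H/+ and Pdx1-Cre, a recombinase driven by the promoter of a transcription factor of the early pancreas. MPDC-exosomes came from a purchased line of murine pancreatic ductal epithelial cells, and the study used them as the negative control. KPC cells were kept in medium with 20% fetal bovine serum and MPDC cells in another medium with 10%, so that the medium and the cell line cannot be told apart. There was 1 one-colour Agilent miRNA array for each preparation, and both lay on the same slide. With 1 array per group there was no replicate, and no SD or test is given. The errors below are those of the scanner and cover the spots of 1 array only. More vesicles and more of a miRNA per vesicle cannot be told apart either.

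In the pancreas, miR-216 and miR-217 are miRNAs of the acinar cells, which make digestive enzymes, and their 3 genes lie close together. miR-375 is a miRNA of the islets, where it restrains insulin secretion. miR-148a is abundant in the exocrine pancreas, and miR-148a, miR-148b and miR-152 share their seed, the bases at the 5′ end that a miRNA uses to find its targets. DNA methyltransferase 1, which keeps up DNA methylation, is among the known targets of this family.

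RefSeq (GRCm38.p6) held the mature sequence of 7 of the 8 miRNAs, and they are shown here because the seed groups them and the few bases outside it are what the array probes had to tell apart. The seed, bases 2 to 8, is in capitals.
miR-217-5p: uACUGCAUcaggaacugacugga
miR-216a-5p: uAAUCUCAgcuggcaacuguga
miR-216b-5p: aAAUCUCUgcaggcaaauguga
miR-148a-3p: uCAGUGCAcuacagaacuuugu
miR-148b-3p: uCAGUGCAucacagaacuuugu
miR-152-3p: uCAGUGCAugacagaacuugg
miR-148a-5p: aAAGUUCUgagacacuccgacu

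The seed CAGUGCA was found in 3 of the 1679 mature mouse miRNAs of the table, which were miR-148a-3p, miR-148b-3p and miR-152-3p. Counted from the 5′ end, miR-148a-3p differed from miR-148b-3p by C9U and U10C, and from miR-152-3p by C9U, U10G and U20G. The seed of miR-148a-5p, the other arm of the miR-148a hairpin, was shared with miR-148b-5p. The seeds of miR-216a-5p and miR-216b-5p differed by A8U, and each of these seeds and that of miR-217-5p belonged to 1 miRNA of the table.

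In GRCm38.p6, mature miR-217-5p lay at chr11:28763761-28763783, miR-216a-5p at chr11:28757018-28757039 and miR-216b-5p at chr11:28746204-28746225, all on the plus strand. The 3 hairpins spanned 17645 bases, and the spans of long noncoding RNA genes covered them, Gm40818 for Mir216a and Mir217 and Mir217hg for Mir216b. Mir216c overlapped Mir216b on the other strand. Mature miR-148a-3p lay at chr6:51269829-51269850 on the minus strand within the span of Gm38821. Mature miR-148b-3p lay at chr15:103285185-103285206 within the span of Copz1, and miR-152-3p at chr11:96850439-96850459 within the span of Copz2, a paralogous pair of coatomer subunit genes. Exons and introns could not be distinguished with the table of gene spans used here.

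Each miRNA had 2 to 4 probes of different length, and each probe 7 to 15 spots. The scanner software, Feature Extraction, took off the background and wrote a signal and an error per probe, in arbitrary units of intensity. A probe counted as detected when its signal exceeded 3 errors, and the signal of a miRNA is the sum over its detected probes. On the arrays, 772 of 1881 miRNAs (41.0%) were detected in KPC-exosomes and 1031 (54.8%) in MPDC-exosomes, with no saturated spot. Before normalization the mean log2 difference of 4 spike-in controls was 0.03, with values from -0.31 to 0.38. The KPC array was the dimmer one, with a median log2 difference of -1.37 over the 726 miRNAs detected on both arrays. Quantile normalization moved that median to 0.53. Differences are therefore given on both scales, on log2, with positive values for higher signal in KPC-exosomes, and levels are never compared between miRNAs.

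Of 7 epithelial miRNAs, among which the miR-200 family is a mark of epithelium, 5 were detected in KPC-exosomes and 7 in MPDC-exosomes. In KPC-exosomes, miR-200a-3p (3.38 ± 0.990) and miR-200c-3p (4.58 ± 1.04) were dim and rested on 1 of 2 probes each. Both probes were detected there for miR-200b-3p (24.4 ± 2.52), miR-141-3p (23.6 ± 2.18) and miR-429-3p (42.8 ± 3.31). The array labelled MPDC-exosomes also gave signal for 8 of 8 miRNAs of pluripotent cells (summed signal 217619, against 344 over the 4 detected in KPC-exosomes) and for 6 of 6 mesenchymal miRNAs (summed signal 293, none detected in KPC-exosomes), which are not known as markers of pancreatic duct. Of 6 haematopoietic miRNAs, 4 were detected on each array, with summed signals of 265 and 426. Within this list, miR-142a-3p was brighter in KPC-exosomes (188 and 29.1), and miR-142a-5p was detected there only (28.4). The reverse held for miR-223-3p (32.0 and 184) and miR-451a (16.4 and 104), and miR-150-5p was detected in MPDC-exosomes only (109). The summed signals of the epithelial list were 98.8 and 1781. All these sums are before normalization. Over all miRNAs of the array they were 429230 in KPC-exosomes and 1.41e+06 in MPDC-exosomes. Whether the MPDC line and the labels are as stated cannot be told from these arrays, and each difference below is between the arrays as labelled. The part that other cell types had in the results was not tested.

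Of the 8 miRNAs, miR-148b-3p and miR-152-3p gave signal on both arrays, miR-217-5p on the KPC array alone, miR-148a-3p on the MPDC array alone, and the other 4 on neither. Over the array, 2.45% of miRNAs were detected in KPC-exosomes only, 16.2% in MPDC-exosomes only, 38.6% on both arrays and 42.7% on neither. By the filter of the study, detection on at least 1 array and an at least 2-fold difference after normalization, 2 of the 8 were higher in KPC-exosomes (miR-217-5p and miR-152-3p) and 2 were lower (miR-148a-3p and miR-148b-3p). The same filter called 799 of the 1881 miRNAs (42.5%), 18.0% higher and 24.5% lower, so a count of 4 in 8 is near that of the whole array. With undetected signals at their bound in place of the floor, 18.0% of all miRNAs were higher and 14.1% lower. The 8 miRNAs then still gave 2 higher and 2 lower. Without normalization, 1 of the 8 was higher and 2 were lower, against 6.38% and 38.9% of all miRNAs.

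**Figure D1:**
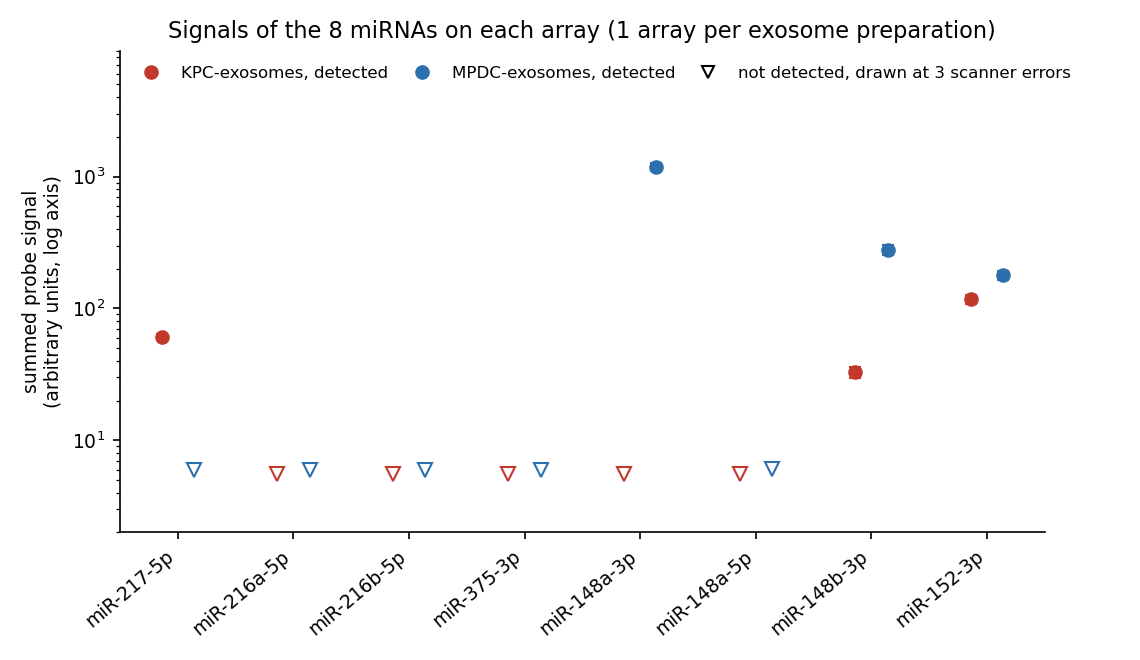
Summed probe signal of the 8 miRNAs in KPC-exosomes (red) and MPDC-exosomes (blue) on a log axis, in arbitrary units before normalization; filled points carry the scanner error, mostly smaller than the point, and open triangles mark undetected miRNAs at 3 scanner errors summed over their probes. miR-217-5p has a filled point in red alone (60.9), miR-148a-3p in blue alone (1190), and miR-148b-3p and miR-152-3p have both.

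Among the acinar miRNAs, miR-217-5p had a signal of 60.9 ± 3.42 in KPC-exosomes, with all 4 probes detected. In MPDC-exosomes none of the 4 probes was detected, and their sum was -0.888 ± 0.997. Set against the lowest detected signal of the MPDC array (1.51), miR-217-5p was 40.4-fold higher in KPC-exosomes before normalization and 282-fold after it. Against the stricter limit of 3 errors summed over its probes (5.97), it was at least 10.2-fold higher before normalization and at least 142-fold after it.

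The probes of miR-217-5p were short, of 12 to 15 bases, and all of them paired with its 3′ end. The longest of them, tccagtcagttcctg, paired with bases 9 to 23 and so did not read the seed. Its longest run of matching bases with any other mature mouse miRNA of the table was 8, with miR-12193-5p, miR-30e-5p, miR-7684-3p and miR-873a-5p. Of these, miR-30e-5p was detected at 143 in KPC-exosomes and 1571 in MPDC-exosomes, and miR-7684-3p at 203 in MPDC-exosomes and not in KPC-exosomes. Whether other miRNAs bound to the probes of miR-217-5p was not tested.

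In KPC-exosomes the probe signals of miR-217-5p were 15.3 ± 1.73 for the probe of 12 bases, 17.6 ± 1.92 for that of 13 bases, 16.4 ± 1.77 for that of 14 bases and 11.6 ± 1.37 for that of 15 bases. All 30 spots of these probes were well above background by the scanner's flag. The lowest of them read 48.4 and the highest 165, while the 30 spots in MPDC-exosomes ran from -7.51 to 4.26. The spots of the arrays overlapped for none of the 4 probes.

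**Figure D2:**
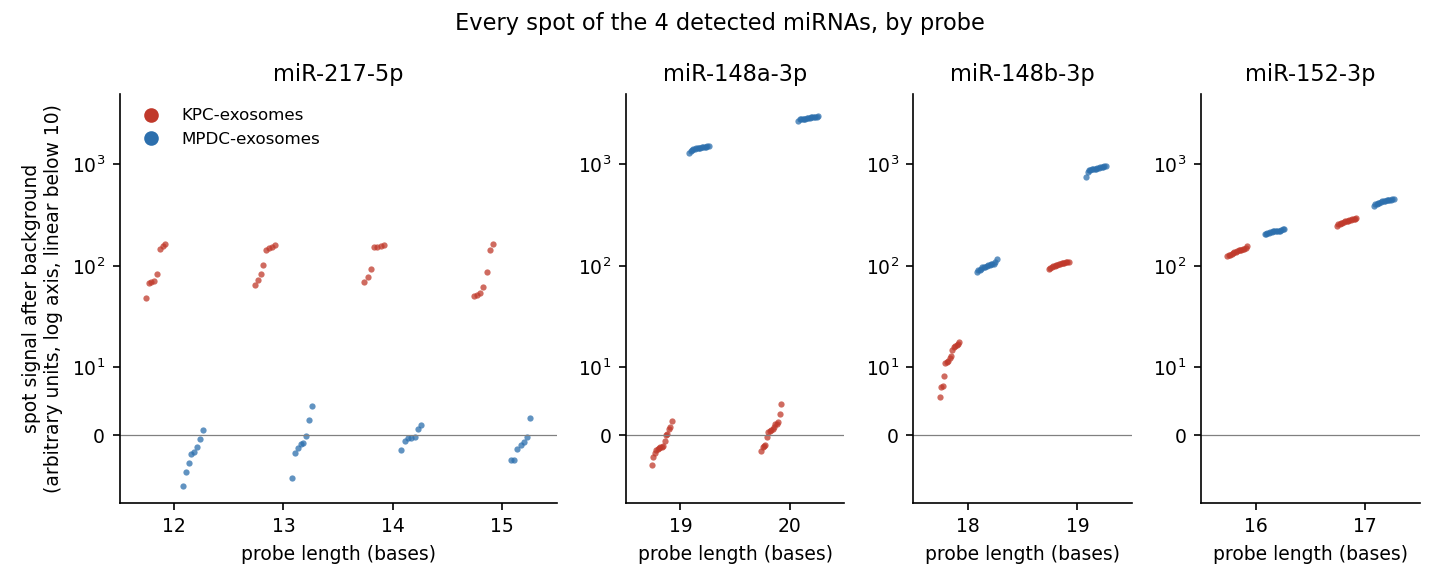
Background-subtracted signal of every spot of the 4 detected miRNAs, by probe length in bases, in KPC-exosomes (red) and MPDC-exosomes (blue) on an axis that is logarithmic above 10 and linear below. The spots of the arrays do not overlap for any probe, and the red spots of miR-217-5p spread from 48.4 to 165.

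The spots of miR-217-5p were uneven. Their coefficient of variation within a probe was 33.6% to 54.4% in KPC-exosomes, against 5.03% for the brighter and 32.0% for the dim probe of miR-148b-3p there, 2.66% and 4.04% for the probes of miR-148a-3p in MPDC-exosomes and 5.07% and 6.08% for those of miR-152-3p in KPC-exosomes. The spread followed the place of the spot on the array. In columns 1 to 82 the 18 spots had a median of 70.4 (range 48.4 to 145), and in columns 83 to 164 the 12 spots had a median of 155 (range 144 to 165). The ranges overlapped at 1 spot of columns 1 to 82.

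Within probes, the median of columns 83 to 164 was 2.24 times that of columns 1 to 82 for miR-217-5p. Over the 760 miRNAs of the KPC array with enough spots, this ratio had a median of 1.1 and a 95th percentile of 1.64, and 6 of them (0.789%), miR-217-5p included, had a ratio as high. For the 42 that were detected in KPC-exosomes only the median was 1.19. The others with a ratio above that of miR-217-5p included miR-6343 (2.75) and miR-33-3p (2.30), also detected in KPC-exosomes only. The rest, miR-433-5p, miR-3078-3p and miR-1964-3p, were detected on both arrays. The ratio was 1.12 for miR-148b-3p and 1.02 for miR-152-3p in KPC-exosomes, and 0.999 for miR-148a-3p in MPDC-exosomes. Between rows 193 to 384 and rows 1 to 192, miR-217-5p had a ratio of 1.13. The part of the place on the array in the signal of miR-217-5p was not tested, and its spots in the dimmer columns all lay above every spot in MPDC-exosomes.

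**Figure D3:**
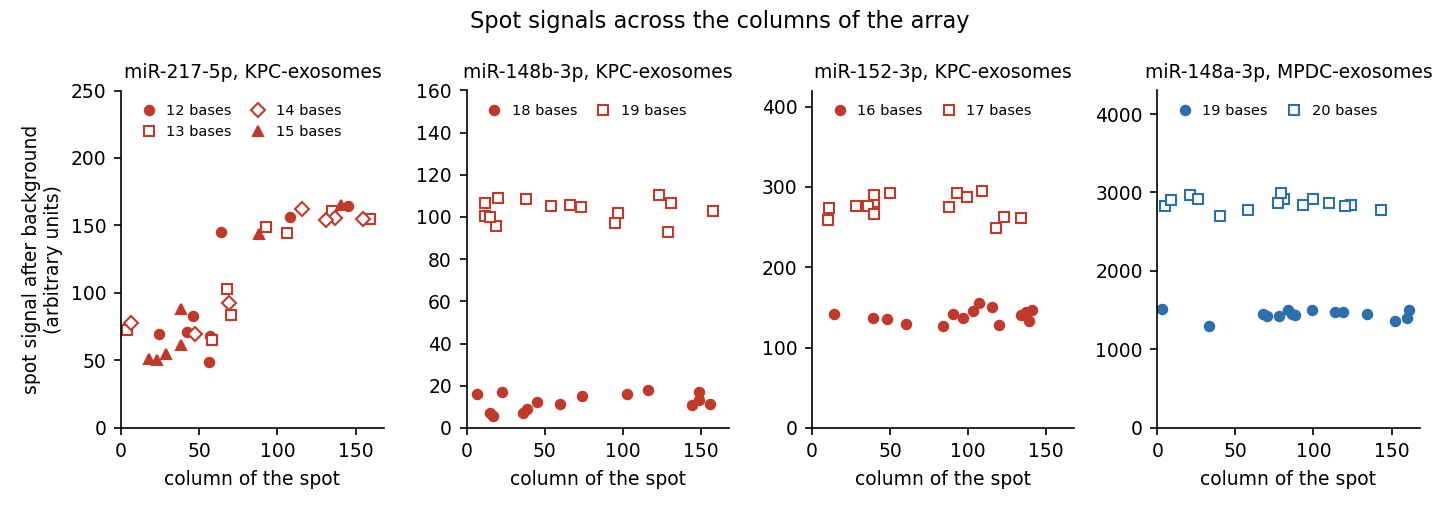
Spot signal after background subtraction, in arbitrary units on linear axes from 0, against the column of the spot on the array, with a marker for each probe length, for the array on which each miRNA is shown. The spots of miR-217-5p sit at a median of 70.4 in columns 1 to 82 and of 155 in columns 83 to 164. Within probes, the ratio between these columns is 1.12 for miR-148b-3p, 1.02 for miR-152-3p and 0.999 for miR-148a-3p. The dim probe of miR-148b-3p, of 18 bases, scatters from 5.68 to 17.9.

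The neighbours of miR-217-5p had no such signal. For miR-216a-5p, the 4 probes summed to -1.33 ± 0.930 in KPC-exosomes and -0.864 ± 0.997 in MPDC-exosomes, below the limits of 3 summed errors, 5.57 and 5.97. For miR-216b-5p the sums were -0.548 ± 0.930 and -0.004 ± 1.00, with limits of 5.57 and 5.99. In its probe of 13 bases, 1 spot read 44.7 in MPDC-exosomes, while the median of that probe's 8 spots was -2.79. Its probe of 14 bases had all 8 spots above 0 in MPDC-exosomes (1.48 to 8.46), with a probe signal of 0.662 ± 0.536 that stayed under 3 errors (1.61). The other arms of this locus, miR-217-3p, miR-216a-3p, miR-216b-3p, miR-216c-5p and miR-216c-3p, were detected on neither array. Thus 1 of the 8 mature miRNAs measured from the locus had signal, and only in KPC-exosomes.

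For the islet miRNA miR-375-3p, the 2 probes summed to -0.940 ± 1.31 in KPC-exosomes and 0.497 ± 1.41 in MPDC-exosomes, and the limits of 3 summed errors were 5.57 and 5.99. None of its 30 spots on either array was well above background. The other arm, miR-375-5p, was not detected in KPC-exosomes and had 8.31 ± 1.30 in MPDC-exosomes, from 1 of its 2 probes. That same probe read 2.83 ± 0.971 in KPC-exosomes, just under its limit of 2.91.

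In the family of the seed CAGUGCA, miR-148a-3p had a signal of 1190 ± 88.5 in MPDC-exosomes. In KPC-exosomes neither of its 2 probes was detected, and their sum was -0.231 ± 1.31 against a limit of 3 summed errors of 5.57. Set at the lowest detected signal of the KPC array (1.41), it was 846-fold lower in KPC-exosomes before normalization and 155-fold lower after it. Its own 2 probes needed signals above 2.78 and 2.79 to be detected, so these folds are not strict bounds. Against the limit of 3 summed errors the bounds were 214-fold and 64.8-fold.

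The probes of this family span the bases that tell its members apart, and the longest of each is shown with the letters that pair with the differing positions of the miRNA in capitals (9 and 10 in the middle, 20 and 22 near the 3′ end).
miR-148a-3p probe: AcAaagttctgtAGtgcact
miR-148b-3p probe: AcAaagttctgtGAtgcac
miR-152-3p probe: cCaagttctgtCAtgca

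The probe of miR-148a-3p had 12 bases in a row that also match miR-148b-3p, and the reverse held too. The probe of miR-152-3p had 9 in a row that match either. In MPDC-exosomes the probes of miR-148a-3p read 401 ± 40.2 (19 bases) and 788 ± 78.9 (20 bases), with spots of 1303 to 1521 and 2704 to 2988. In KPC-exosomes, where miR-148b-3p and miR-152-3p were both detected, they read -0.408 ± 0.928 and 0.177 ± 0.929, and no spot was above 4.59. Whether miR-148a-3p added to the signal of miR-148b-3p in MPDC-exosomes was not tested.

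The 5p arm of the same hairpin, miR-148a-5p, was detected on neither array. Its 4 probes summed to -1.21 ± 0.930 in KPC-exosomes and 0.731 ± 1.01 in MPDC-exosomes, with limits of 5.57 and 6.04. Its probe of 16 bases came nearest, with 1.27 ± 0.488 in MPDC-exosomes against a limit of 1.46, and spots from 3.20 to 23.1 there. In KPC-exosomes the spots of that probe ran from -5.12 to 4.72. Of the 5p arms of the other hairpins, miR-148b-5p had 4.81 ± 1.11 in MPDC-exosomes from 1 of 2 probes and was not detected in KPC-exosomes. miR-152-5p was detected on neither array, with sums of -1.27 ± 1.31 in KPC-exosomes and -1.27 ± 1.41 in MPDC-exosomes.

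For miR-148b-3p the signals were 32.8 ± 3.23 in KPC-exosomes and 279 ± 25.4 in MPDC-exosomes. The log2 difference was -3.09 before normalization and -1.27 after it, with a scanner error of 0.19, or 8.51-fold and 2.41-fold lower in KPC-exosomes. Both probes gave the same direction before normalization, -2.96 ± 0.44 for that of 18 bases (3.53 and 27.5) and -3.10 ± 0.21 for that of 19 bases (29.3 and 252). The probe of 18 bases was near the limit in KPC-exosomes, with 3 of 15 spots well above background. The spots of the arrays did not overlap for either probe.

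For miR-152-3p the signals were 118 ± 8.88 in KPC-exosomes and 179 ± 13.4 in MPDC-exosomes. The log2 difference was -0.60 before normalization and 1.23 after it, with a scanner error of 0.15, so the direction depended on the normalization. The probe of 16 bases read 39.6 and 60.1 and that of 17 bases 78.3 and 119, and each gave -0.60 ± 0.21 before normalization. All 60 spots were well above background, and the spots of the arrays did not overlap. Thus miR-152-3p was 1.52-fold lower in KPC-exosomes before normalization and 2.34-fold higher after it, when the median of the miRNAs detected on each array was itself at 0.53, so that it lay 0.70 (log2) above that median.

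The log2 differences of miR-152-3p and miR-148b-3p lay 2.50 apart after normalization and 2.49 apart before it, with a combined scanner error of 0.25. Scaling an array by a constant cannot change this gap. Over the ways of processing, including other quantiles, background corrections and summaries of the probes, the gap ran from 1.61 (normexp background correction) to 2.51. Relative to the median of the 726 miRNAs with signal on each array, miR-152-3p lay between 0.47 and 0.89 and miR-148b-3p between -1.80 and -0.91. By the place of the spots, the differences before normalization were -2.95 in columns 1 to 82 and -3.11 in the others for miR-148b-3p and -0.59 and -0.61 for miR-152-3p. Among those 726 miRNAs, 18.6% had a lower normalized difference than miR-148b-3p and 65.2% a lower one than miR-152-3p, so neither was extreme. The 3 miRNAs of the seed CAGUGCA thus had different patterns, with miR-148a-3p not detected in KPC-exosomes, miR-148b-3p lower there on both scales and miR-152-3p changing sides.

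**Figure D4:**
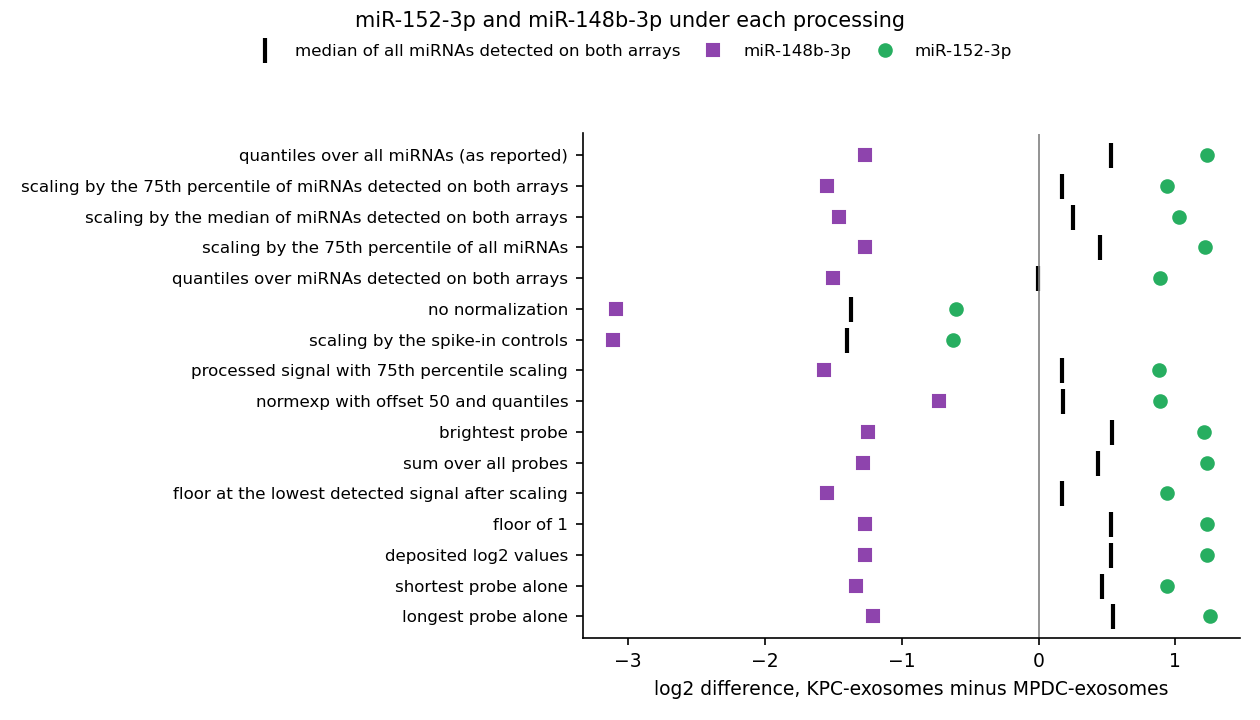
Log2 difference of miR-148b-3p (squares) and miR-152-3p (circles), KPC-exosomes minus MPDC-exosomes, under each way of processing, with the median of the miRNAs that both arrays detected (vertical ticks). miR-148b-3p lies left of the median and miR-152-3p right of it on every line, and miR-152-3p lies below 0 on the lines without normalization (-0.60) and with spike-in scaling (-0.63).

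Of 11 other islet and pancreas miRNAs, 4 were detected on both arrays, 1 in KPC-exosomes only, 3 in MPDC-exosomes only and 3 on neither (miR-7a-2-3p, miR-802-3p and miR-184-5p). By the filter, 1 was higher and 5 were lower in KPC-exosomes, where 18.0% and 24.5% of all miRNAs were. Of the 5 that were lower, 4 were arms of the miR-7 family. The median normalized difference of the list was -0.96 over the 6 with a measured or bounded value, against 0.30 over the 905 miRNAs of the array with such a value. The rest of the 1077 miRNAs detected on at least 1 array were detected in MPDC-exosomes only and were too dim for a bound. The 0.30 therefore leaves out miRNAs of 1 side only.

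The endocrine miRNA miR-7a-5p had a signal of 97.6 ± 8.98 in KPC-exosomes and 5136 ± 468 in MPDC-exosomes. Its log2 difference was -5.72 before normalization and -4.00 after it, with a scanner error of 0.19. Its relative miR-7b-5p was not detected in KPC-exosomes and had 143 ± 10.5 in MPDC-exosomes. Set at its own summed signal in KPC-exosomes (1.82), it was 78.3-fold lower before normalization and 14.1-fold lower after it. Against the limit of 3 summed errors the bounds of miR-7b-5p were 25.5-fold and 6.77-fold. The 3p arm miR-7a-1-3p had 6.07 ± 1.11 and 80.9 ± 6.79, a difference of -3.74 before normalization and -1.86 after it, with a scanner error of 0.29. Its signal in KPC-exosomes came from 1 of 2 probes, and that probe gave -3.40 ± 0.30 before normalization. The 3p arm miR-7b-3p was detected in MPDC-exosomes only (10.9 ± 1.61). Set at the lowest detected signal of the KPC array, it was 7.77-fold lower before normalization and too dim for a bound after it. Against the limit of 3 summed errors its bound before normalization fell to 1.96-fold. The miR-7 family was thus the lower one in KPC-exosomes on both scales for each member with a value.

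Like miR-217-5p, miR-802-5p, a miRNA of liver and pancreas, was detected in KPC-exosomes only. It had 9.71 ± 1.50 there. Set against the lowest detected signal of the MPDC array, it was 6.44-fold higher before normalization and 44.6-fold higher after it. Against the limit of 3 summed errors these bounds fell to 1.63-fold and 22.4-fold. The bounds after normalization depend on the floor, as for miR-217-5p. For miR-184-3p, a miRNA of islets and epithelia, the signals were 51.1 ± 3.92 and 123 ± 8.81, a difference of -1.26 before normalization and 0.59 after it, so that its direction turned as that of miR-152-3p did. miR-204-5p, a miRNA of islets and eye, was detected in MPDC-exosomes only (10.4 ± 1.44). Set at the lowest detected signal of the KPC array, it was 7.39-fold lower there before normalization and too dim for a bound after it. Against the limit of 3 summed errors, miR-204-5p was at least 1.86-fold lower before normalization. Its other arm miR-204-3p had 3.11 ± 0.986 and 16.6 ± 1.87, a difference of -2.41 before normalization and -0.06 after it, with a scanner error of 0.49. The signal in KPC-exosomes came from 1 of 2 probes, just above its limit of 2.96. That probe gave -1.65 ± 0.50 before normalization.

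**Figure D5:**
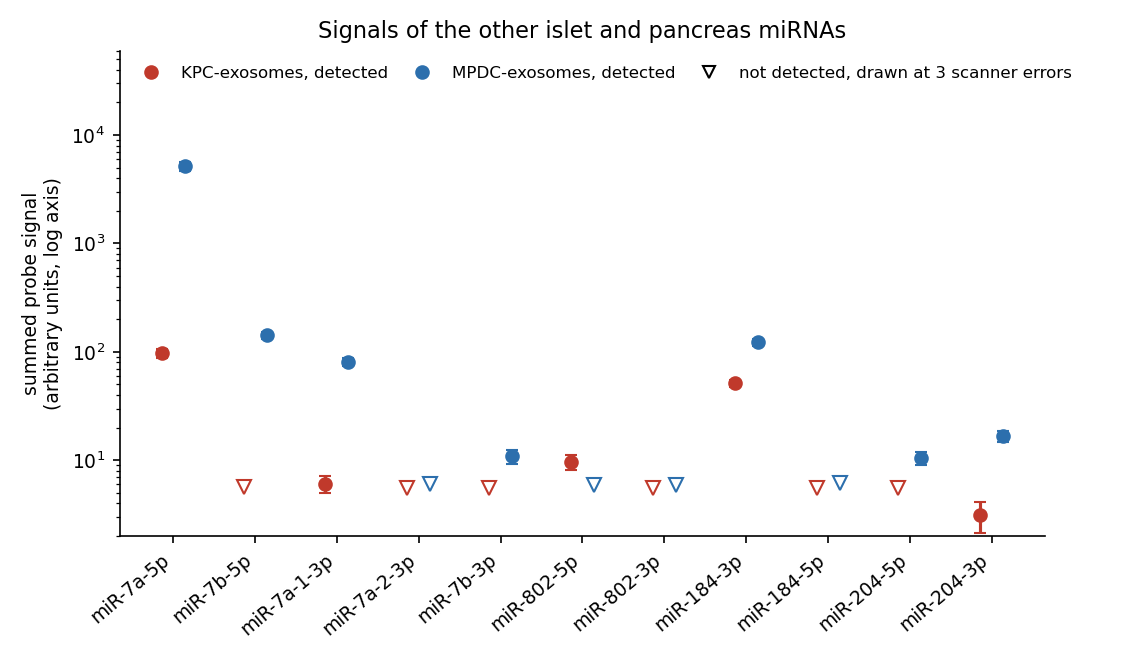
Summed probe signal of the 11 other islet and pancreas miRNAs in KPC-exosomes (red) and MPDC-exosomes (blue) on a log axis, in arbitrary units before normalization, with the scanner error; open triangles mark undetected miRNAs at 3 scanner errors summed over their probes. miR-7a-5p has the widest gap among those of the list detected on both arrays, from 97.6 to 5136, and miR-802-5p has a filled point in red alone (9.71).

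Of the 8 other arms and neighbours of the same hairpins and locus, 2 were detected, both in MPDC-exosomes only (miR-375-5p and miR-148b-5p), and both were lower by the filter with undetected signals at the floor. Neither was bright enough for a bound after normalization. The median log2 difference of these 2 before normalization, with undetected signals at their bound, was -1.80. Over the 1072 miRNAs of the array with a measured or bounded value it was -1.60. Of 7 epithelial, 6 mesenchymal, 6 haematopoietic and 8 pluripotent miRNAs, 0, 0, 2 and 0 were higher in KPC-exosomes by the filter, and 5, 6, 1 and 8 were lower. Over the array 18.0% were higher and 24.5% lower, so the 2 of 8 other arms and neighbours that were lower are near that share. The median normalized differences of the marker lists were -1.47, -1.31, -0.66 and -6.32, over the 7, 5, 5 and 8 miRNAs with a measured or bounded value. Each was below the 0.30 over the 905 miRNAs of the array with such a value, which leaves out dim miRNAs detected in MPDC-exosomes only.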

How the data were processed

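Agilent mouse miRNA arrays were hybridized with Cy3-labelled RNA of KPC-exosomes and MPDC-exosomes, 1 array each, and the samples were grouped by their labels. The authors deposited the scanner output of each array, with signals and errors as intensity values after background subtraction. Feature Extraction is version 10.7.1.1 per the file headers and 9.1 per the labels. Log2 values per miRNA were deposited too, which the authors had normalized in GeneSpring by a method not given in the sources used here.

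Signals of detected probes were summed, undetected miRNAs were set to a floor of 0.1, and log2 values were quantile normalized with 21 control features, which gave the deposited values within 1.11e-05. A bound ("at least") sets the detected signal against the lowest detected signal of the other array, or the own signal of the miRNA there if higher. After normalization, the bounds of miRNAs detected in KPC-exosomes only also depend on the floor. Quantile matching takes both arrays to have 1 distribution of signals, so it removes any difference in total amount. The quantile step was checked on simulated data. No test was made, with 1 array per group, and the number of arrays limits the precision.

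The 8 miRNAs and the 6 lists (other arms and neighbours, other islet and pancreas, epithelial, mesenchymal, haematopoietic, pluripotent) were chosen with earlier results of these data known. Named were the 8 miRNAs and the members of the first 2 lists. The 3 miRNAs nearest in level to each member detected on both arrays, also set to be named, were left out, because levels of different probes cannot be compared. For the place of spots, the array was split at the middle column and row, and the medians of its parts were compared within probes, averaged on the log scale. That comparison was chosen after seeing the data.

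Alternatives were other scalings (75th percentile or median of miRNAs detected on both arrays, 75th percentile of all, quantiles over those on both, spike-ins, none), the processed signal, normexp with offset 50, the brightest probe, all probes, other floors, the deposited log2 values, detection on both arrays or no detection filter, a difference above 2 scanner errors besides the fold, and 4-fold in place of 2-fold. The limit of 3 summed errors and the shortest or longest probe alone were chosen after seeing the data. The tools were Python 3.11.15, numpy 2.4.6, pandas 2.3.3, matplotlib 3.10.9, R 4.3.3 and limma 3.58.1. RT-qPCR was not analysed here, and 1 allele of the KPC line is not reported here.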

Additional observations from a re-analysis of the deposited data

How the results depend on the processing

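No paired analysis was possible because each group had 1 array, and for the same reason none could be left out. miR-148b-3p stayed lower in KPC-exosomes in all 17 ways of processing. With the undetected signal at its bound, miR-217-5p stayed higher (from 3.93-fold with normexp to 282-fold). In the same way, miR-148a-3p stayed lower (from 16.2-fold with normexp to 861-fold with spike-in scaling). miR-152-3p turned from 1.23 to -0.60 without normalization and to -0.63 with spike-in scaling. The count of the 8 miRNAs called higher went from 2 to 1 under 75th percentile scaling on both arrays, quantiles over both arrays, no normalization, spike-in scaling, the processed signal, normexp, the floor at the lowest detected signal, the shortest probe, detection on both arrays and the 4-fold threshold, and the count called lower from 2 to 1 under normexp, detection on both arrays and the 4-fold threshold. The other arms called lower went from 2 to 0 (normexp, shortest probe, detection on both arrays) or 1 (both other floors). In the islet list, calls higher went from 1 to 0 and calls lower from 5 to 2 under normexp and under detection on both arrays. Over the marker lists, calls higher went from 2 to 1 with detection on both arrays, and calls lower from 20 to 11 (normexp) and 7 (detection on both arrays). Over all miRNAs, 339 higher became 120 without normalization, 119 with spike-ins and 149 with normexp, and 460 lower became 732, 740 and 148, and 155 with detection on both arrays. Normexp adds an offset of 50 to every signal, which shrinks differences of dim miRNAs. The undetected miRNAs have a limit near 6 units and not a level, and the number of arrays limits every value here.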
